A study of Mus musculus with 8 samples.

Results

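Transcripts of 9 small leucine-rich proteoglycans were followed across 8 mouse tumors: decorin (Dcn), biglycan (Bgn), asporin (Aspn), lumican (Lum), fibromodulin (Fmod), Prelp, osteomodulin (Omd), osteoglycin (Ogn) and podocan (Podn). The rows were taken by gene name, and all 9 of 9 names were found among the 35539 listed genes. The family was chosen from earlier results of these same tumors, in which lumican with loratadine and fibromodulin with rapamycin were already known. Drug differences of these genes are therefore given as a description, with the spread between tumors. Their calls in the fit over all genes are only counted, beside the share of all genes called. The other gene lists used below were also chosen with earlier results known, so their calls and adjusted p are a description too. The tumors grew subcutaneously from 105K Tsc2-null cells in immunocompetent C57BL/6J mice, which by the study's methods were female, bought at 6 weeks of age and inoculated in Matrigel. The line was derived from a mouse kidney tumor, and all 4 groups carry it. The groups of 2 tumors were loratadine with rapamycin (A3L and C1R), rapamycin alone at 0.25 mg/kg/day (D1L and G3L), loratadine alone at 25 mg/kg/day (B3R and F3R), and the carboxymethylcellulose (CMC) vehicle (B1L and F5L).

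Limits of the design touch every comparison below. By the study's methods, tumors assigned to rapamycin, alone or combined, were larger when dosing began, so rapamycin and the starting size cannot be told apart. The tumor codes were read here as cage, animal and side, a reading that the study's text does not give. Code letters A, C, D and G occurred only with rapamycin, and B and F only without it. Rapamycin and the cage read from the letter cannot be told apart either. All 3 tumors with R in the code (C1R, B3R and F3R), read as the right side, had received loratadine. The sample labels give loratadine as intraperitoneal and the study's text gives it as oral. The labels call the tissue a mammary tumor, while Pax8, a transcription factor of kidney epithelium, was listed at 23.9 to 62.8 TPM in all 8 tumors. Of 8 mammary markers, 4 stayed below 1 TPM in every tumor, among them the milk protein genes Wap, Csn2 and Lalba, while the casein gene Csn3 reached 174 TPM in B1L and the basal keratin Krt14 39.6 TPM in F5L. Tsc2 was itself listed at 42.0 to 78.1 TPM, which checks nothing, since host cells carry the gene and the labels do not say which part the tumor cells lack. The authors deposited TPM, a length-corrected share of all transcripts, from which no read number can be recovered, so the depth behind each value is unknown. Between 13251 and 14371 genes reached 1 TPM in a tumor.

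Small leucine-rich proteoglycans are secreted proteins of the extracellular matrix whose curved core, built of leucine-rich repeats, lies along collagen fibrils. They are sorted into classes by sequence and gene structure. The class I members decorin and biglycan carry chondroitin or dermatan sulfate chains, many of the class II members can carry keratan sulfate, and asporin lacks the usual chain attachment site. In skin, tendon and tumor stroma they are known for setting the width and spacing of fibrils, and some of them bind growth factors such as TGF-beta or cell surface receptors. Fibroblasts are their best known source.

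Most of the genes lie in clusters on the NCBIM37 (mm9) assembly. Decorin (ENSMUSG00000019929, chr10:96942245-96980777) is followed after 47.4 kb by lumican (ENSMUSG00000036446, chr10:97028135-97035337). Asporin (ENSMUSG00000021388, chr13:49639812-49662926), osteomodulin (ENSMUSG00000048368, chr13:49678135-49687978) and osteoglycin (ENSMUSG00000021390, chr13:49703440-49719869) stand in one row with gaps of 15.2 and 15.5 kb. These 3 genes lie on the plus strand within the span of Cenpp, a centromere protein gene of the minus strand, which was listed at 0.97 to 2.77 TPM with rapamycin and at 4.42 to 8.47 TPM without it. Whether the counting used strand is not given in the sources used here, so reads of these genes and of Cenpp may not be fully separated. Prelp (ENSMUSG00000041577, chr1:135806881-135817991, minus strand) and fibromodulin (ENSMUSG00000041559, chr1:135933831-135944854, plus strand) are 116 kb apart, and Prelp overlaps the antisense transcript Gm15851 over 4.52 kb. Biglycan (ENSMUSG00000031375, chrX:70728941-70741272) and podocan (ENSMUSG00000028600, chr4:107687396-107704942) have no other member nearby. Within each cluster, 0 other protein-coding genes lie wholly between neighbours.

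Fibromodulin, Prelp, biglycan and podocan were the members with the largest rapamycin differences relative to their error, so the 120 bases before their start sites are shown. The sequences come from the RefSeq promoter table on GRCm38.p6, which holds 7 of the 9 genes (not Dcn and Lum), and are written 5′ to 3′ on the gene's strand. Capitals mark a match to CCAAT or GGGCGG on either strand. No match to TATAAA lay in them.
Fmod, chr1:134037134-134037253, plus strand: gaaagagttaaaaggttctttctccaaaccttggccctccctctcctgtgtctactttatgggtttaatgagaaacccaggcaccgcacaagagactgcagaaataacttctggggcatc
Prelp, chr1:133921402-133921521, minus strand: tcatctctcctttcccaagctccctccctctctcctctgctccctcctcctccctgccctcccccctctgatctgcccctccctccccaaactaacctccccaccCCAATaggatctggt
Bgn, chrX:73483481-73483600, plus strand: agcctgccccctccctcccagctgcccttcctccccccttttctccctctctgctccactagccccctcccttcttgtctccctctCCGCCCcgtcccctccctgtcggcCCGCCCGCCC
Podn, chr4:108031955-108032074, minus strand: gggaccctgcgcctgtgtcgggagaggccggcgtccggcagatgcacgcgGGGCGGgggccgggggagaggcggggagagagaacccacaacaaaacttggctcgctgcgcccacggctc
The biglycan stretch ends in 2 overlapping copies of the reverse complement of GGGCGG, and the fibromodulin stretch held none of the motifs. For Podn the table gives 2 starts, and the upstream one is shown. Over the 250 bases before the start, TATAAA was present in 12.4%, CCAAT in 33.8% and GGGCGG in 32.7% of all 32851 promoters of the table. The 4 stretches have no motif of this search in common.

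Levels differed between the genes by orders of magnitude. On the TPM scale, which is per length, decorin averaged 492 ± 895 TPM over the 8 tumors (SD) and biglycan 249 ± 98.4 TPM. Decorin was above biglycan in only 3 of 8 tumors, so the order of these means does not hold tumor by tumor. Biglycan exceeded lumican (25.0 ± 22.9 TPM) in 8 of 8 tumors. Prelp (19.5 ± 21.3 TPM), asporin (12.2 ± 5.76 TPM), fibromodulin (6.47 ± 5.85 TPM) and osteoglycin (4.22 ± 4.63 TPM) followed, and of these neighbours each exceeded the next in 4 to 6 of 8 tumors. Podocan (2.25 ± 1.28 TPM) exceeded osteomodulin (0.70 ± 0.34 TPM) in 8 of 8 tumors. All 9 genes passed the filter of at least 1 TPM in at least 2 tumors, but osteomodulin reached 1 TPM in only 2 tumors, A3L and D1L, which had both received rapamycin. Osteoglycin reached it in 5 tumors.

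Among the class I genes, decorin, a collagen-binding proteoglycan that also binds TGF-beta, was at 153 and 2624 TPM with both drugs, 59.2 and 739 TPM with rapamycin, 277 and 53.2 TPM with loratadine, and 13.3 and 12.5 TPM with vehicle. Both vehicle tumors lay below all 6 treated ones, and the 2 tumors of each treated group differed by 17.2-fold with both drugs, 12.5-fold with rapamycin and 5.21-fold with loratadine. Biglycan, the close relative of decorin that can signal through Toll-like receptors when set free, was at 335 and 337 TPM with both drugs, 366 and 293 TPM with rapamycin, 213 and 205 TPM with loratadine, and 140 and 100.4 TPM with vehicle. Its groups formed 3 levels that did not overlap, with the rapamycin groups highest and vehicle lowest, and its largest value was 3.64 times its smallest against 210 times for decorin. Asporin, which binds collagen and carries a stretch of aspartates, was at 23.4 and 16.1 TPM with both drugs, 9.99 and 8.32 TPM with rapamycin, 15.4 and 8.21 TPM with loratadine, and 9.75 and 6.03 TPM with vehicle. Both tumors given the 2 drugs together lay above the other 6, and the single-drug and vehicle tumors overlapped.

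Among the class II genes, lumican, which binds collagen and is known from the transparent cornea, was at 33.7 and 70.3 TPM with both drugs, 11.9 and 9.47 TPM with rapamycin, 43.8 and 19.5 TPM with loratadine, and 4.66 and 6.85 TPM with vehicle. Every tumor with loratadine, at 19.5 to 70.3 TPM, exceeded every tumor without it, at 4.66 to 11.9 TPM. Fibromodulin, which shares a binding region on collagen with lumican, was at 13.9 and 6.42 TPM with both drugs, 12.7 and 13.0 TPM with rapamycin, 1.80 and 1.86 TPM with loratadine, and 1.46 and 0.59 TPM with vehicle. Here the division ran along rapamycin, with 6.42 to 13.9 TPM with it and 0.59 to 1.86 TPM without it. The 2 genes separated the same 8 tumors along different drugs. This split was known when the family was chosen, so nothing is read from it. Prelp, a protein that binds collagen and basement membrane heparan sulfate, was at 39.7 and 60.3 TPM with both drugs, 8.78 and 26.4 TPM with rapamycin, 4.97 and 14.1 TPM with loratadine, and 1.06 and 0.88 TPM with vehicle. The tumors with both drugs were highest, the vehicle tumors lowest, and the 2 single-drug groups overlapped. Osteomodulin, a keratan sulfate proteoglycan known from bone, was at 1.20 and 0.69 TPM with both drugs, 1.20 and 0.71 TPM with rapamycin, 0.48 and 0.48 TPM with loratadine, and 0.60 and 0.26 TPM with vehicle. Its 4 tumors with rapamycin lay above the 4 without it by a margin of less than 0.1 TPM.

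Osteoglycin, a class III gene also called mimecan, was at 3.37 and 14.0 TPM with both drugs, 3.35 and 0.51 TPM with rapamycin, 7.99 and 2.70 TPM with loratadine, and 0.86 and 0.92 TPM with vehicle. Its lowest value of all was in G3L, the rapamycin tumor in which decorin was 739 TPM, so these genes did not follow each other there. Podocan, a class V gene that binds collagen, was at 2.77 and 4.20 TPM with both drugs, 4.03 and 1.97 TPM with rapamycin, 1.54 and 1.30 TPM with loratadine, and 1.39 and 0.81 TPM with vehicle. All 4 tumors with rapamycin exceeded the 4 without it.

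**Figure D1:**
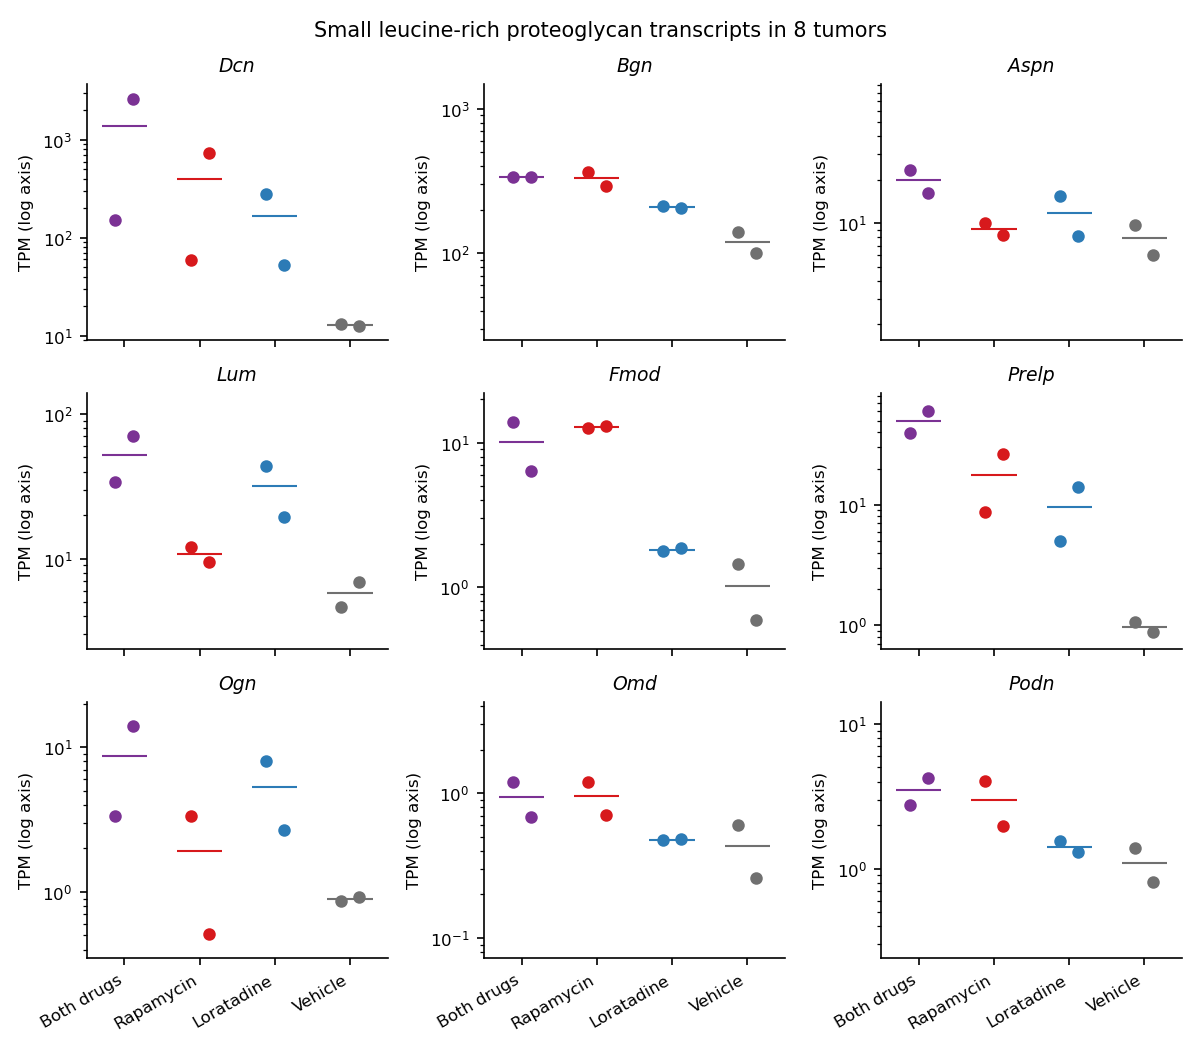
TPM of each of the 9 genes on a log axis, by treatment. Each point is 1 tumor and each bar the mean of the 2 tumors of a group. Every tumor with loratadine lies above those without it for Lum, and every tumor with rapamycin lies above those without it for Bgn, Fmod, Omd and Podn.

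The summed level of the 9 genes was 606 and 3133 TPM with both drugs, 477 and 1093 TPM with rapamycin, 566 and 307 TPM with loratadine, and 173 and 129 TPM with vehicle. Every treated tumor lay above both vehicle tumors. The make-up of the sum also differed. In the vehicle tumors biglycan gave 80.9% and 77.7% of it and decorin 7.66% and 9.68%. Decorin gave 83.8% in C1R, 67.6% in G3L and 49.0% in B3R, the tumors where it exceeded biglycan, and in the other treated tumors it gave 12.4 to 25.2%. These 3 tumors belong to 3 different treatments.

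**Figure D2:**
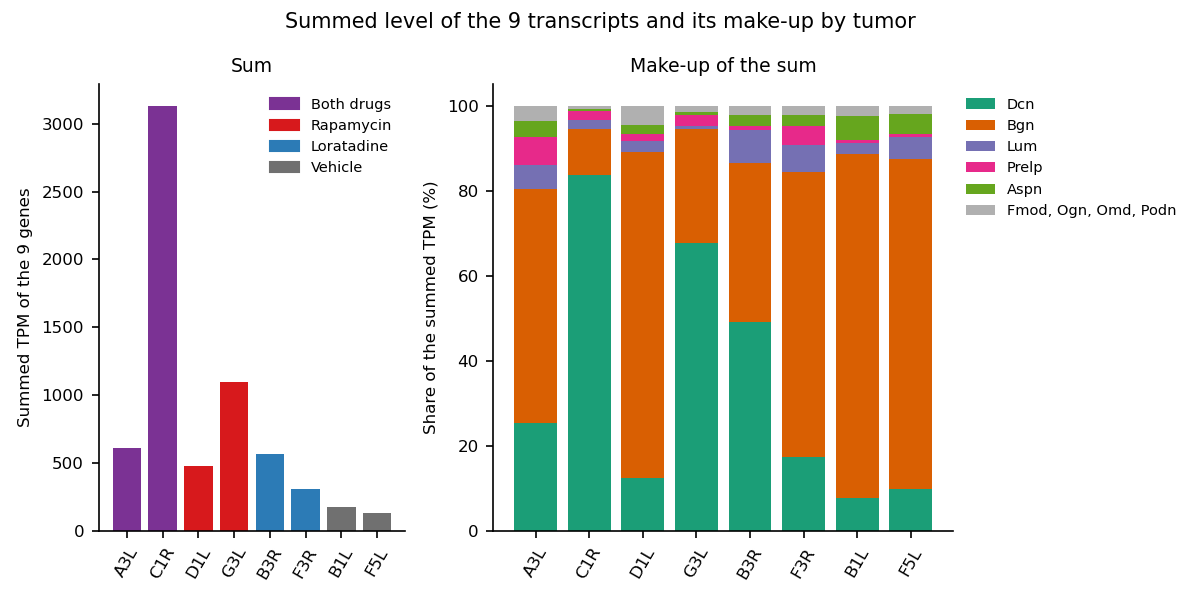
Left, the summed TPM of the 9 genes in each tumor, coloured by treatment. Right, the share of that sum given by each gene, in percent, with Fmod, Ogn, Omd and Podn pooled. The sum is highest in C1R at 3133 TPM, where Dcn gives 83.8%, and lowest in the vehicle tumors, where Bgn gives most of it.

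With rapamycin, podocan, biglycan, fibromodulin and Prelp were higher and 0 members were lower. Differences are on the log2(TPM + 1) scale, which understates the change of low genes, from a limma model with a term for each drug over all 8 tumors, and a gene is called at an adjusted p under 0.05 over the 15095 genes tested. The difference was 2.73 (SE 0.41) for Prelp, 2.35 (SE 0.30) for fibromodulin, 1.07 (SE 0.19) for biglycan and 0.88 (SE 0.23) for podocan, and these 4 of 9 members were called higher, while 12.0% of all tested genes were. Fibromodulin averaged 11.5 ± 3.43 TPM with rapamycin and 1.43 ± 0.58 TPM without it (SD, n = 4 each), an 8.06-fold ratio of means, and biglycan averaged 333 ± 29.8 TPM with it and 165 ± 53.8 TPM without it. Decorin had the largest difference, 3.15, with an SE of 1.09, and was not called. The differences of lumican (0.76, SE 0.31), asporin (0.48, SE 0.26), osteoglycin (0.47, SE 0.49) and osteomodulin (0.41, SE 0.19) were not called either. The median over the members was 0.88, beside 0.12 over all tested genes. In 4 of 9 members all 4 tumors with rapamycin exceeded all 4 without it, as 15.7% of tested genes did, and these were biglycan, fibromodulin, osteomodulin and podocan. Because the genes were chosen with this contrast known, nothing is read from these counts. Podocan kept its call in 8 of 19 alternative analyses, and of the 8 fits with 1 tumor left out only in the one without G3L, while fibromodulin, biglycan and Prelp kept theirs in 19 of 20.

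With loratadine, lumican had the difference with the smallest error relative to its size, 2.14 (SE 0.31). It averaged 41.8 ± 21.5 TPM with loratadine and 8.23 ± 3.16 TPM without it (SD, n = 4 each), a 5.08-fold ratio of means. Decorin differed by 2.37 (SE 1.09), Prelp by 1.94 (SE 0.41), osteoglycin by 1.64 (SE 0.49), asporin by 0.76 (SE 0.26), biglycan by 0.42 (SE 0.19) and podocan by 0.21 (SE 0.23). Fibromodulin (0.06, SE 0.30) and osteomodulin (0.03, SE 0.19) were near 0, and their sign turned under median-of-ratios scaling and quantile normalization. By limma, 0 of 9 members and 0% of all tested genes were called higher, and 1255 of 15095 genes had an unadjusted p under 0.05. The median over the members was 0.76, beside 0.10 over all genes. Lumican was the 1 member in which all 4 tumors with loratadine exceeded all 4 without it, which held for 2.42% of tested genes.

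**Figure D3:**
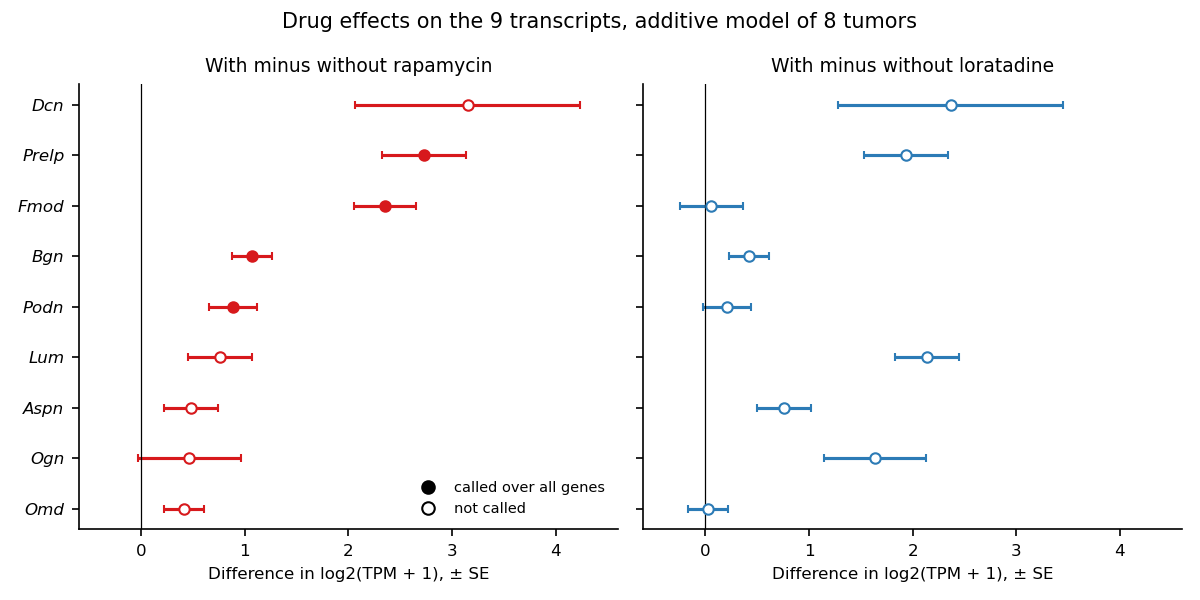
Difference in log2(TPM + 1) between tumors with and without rapamycin (left) and with and without loratadine (right) for each gene, from the additive model of 8 tumors. Points are estimates, bars are standard errors, and filled points were called over all 15095 genes. Fmod is at 2.35 with rapamycin and 0.06 with loratadine, and Lum at 0.76 with rapamycin and 2.14 with loratadine.

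The single groups were compared in a model of 4 group means with 2 tumors each. With both drugs against vehicle, Prelp (4.66, SE 0.59), lumican (2.90, SE 0.47), fibromodulin (2.41, SE 0.39) and biglycan (1.49, SE 0.20) were called higher, 4 of 9 members beside 7.18% of all tested genes. With rapamycin against vehicle, Prelp (3.05, SE 0.59), fibromodulin (2.81, SE 0.39) and biglycan (1.46, SE 0.20) were called higher, 3 of 9 beside 6.65%. With loratadine against vehicle, 0 of 9 members were called by limma, beside 0.00662% of tested genes, of which 1826 lay below an unadjusted p of 0.05. Prelp differed there by 2.27 (SE 0.59) and lumican by 2.18 (SE 0.47). These 3 comparisons share the vehicle tumors, and the calls rest on them: rapamycin against vehicle gave 0 calls without B1L and 0 without F5L. Both drugs against vehicle gave 1 call without B1L, 0 without F5L, 0 without A3L and 1 without C1R.

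Against each single drug the combination gave 0 called members and 0% of tested genes called higher. Against rapamycin, lumican differed by 2.10 (SE 0.47), osteoglycin by 1.66 (SE 0.75), Prelp by 1.61 (SE 0.59) and asporin by 1.02 (SE 0.37), while biglycan (0.03, SE 0.20) and fibromodulin (-0.40, SE 0.39) were near 0. Against loratadine, Prelp, as against rapamycin, was higher in both tumors with the 2 drugs, fibromodulin differed by 1.89 (SE 0.39), biglycan by 0.68 (SE 0.20) and lumican by 0.72 (SE 0.47). At an unadjusted p under 0.05 there were 359 genes against rapamycin and 2204 genes against loratadine. The interaction of the drugs, the loratadine difference with rapamycin minus that without it, called 0 members, with 0.00662% of tested genes called above 0. Its largest value relative to its error was -0.78 (SE 0.29) for biglycan, and 719 genes were below an unadjusted p of 0.05.

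Across the 8 tumors the 36 pairs of members had Pearson's r of log2(TPM + 1) between 0.13 and 0.92, with a median of 0.60. The tumors share treatments and cell content, so r is a description. Lumican and osteoglycin had the highest value, 0.92, and kept 0.86 after the 2 drug terms were taken out. Fibromodulin went with biglycan (0.91) and osteomodulin (0.88), and biglycan with podocan (0.89) and Prelp (0.85). After the drug terms these 4 values were 0.68 for fibromodulin and biglycan, 0.68 for fibromodulin and osteomodulin, 0.48 for biglycan and podocan and 0.02 for biglycan and Prelp. The lowest values were between fibromodulin and osteoglycin (0.13), osteoglycin and osteomodulin (0.18), lumican and osteomodulin (0.20), decorin and osteomodulin (0.26) and lumican and fibromodulin (0.27). Genes that neighbour each other were not alike throughout: r was 0.74 for decorin and lumican, 0.76 for fibromodulin and Prelp, 0.58 for asporin and osteomodulin, and 0.18 for osteomodulin and osteoglycin, which stand next to each other on chromosome 13.

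**Figure D4:**
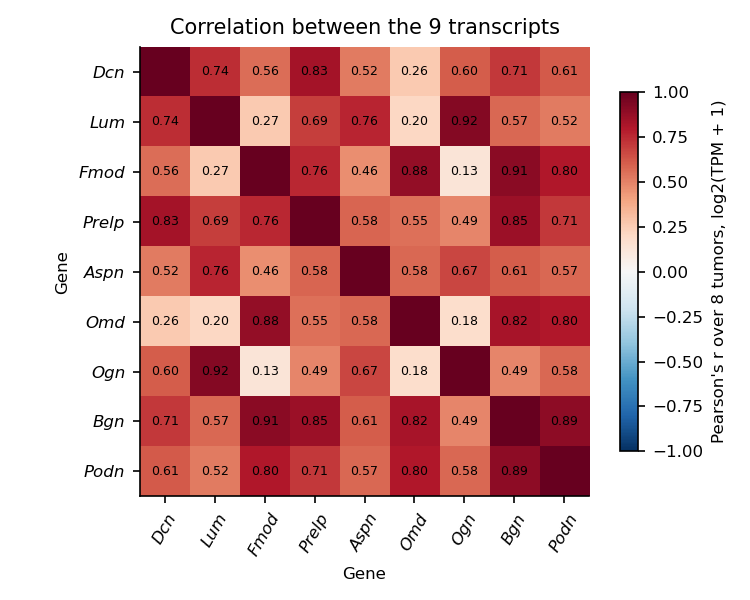
Pearson's r of log2(TPM + 1) over 8 tumors for each pair of the 9 genes, as colour and number, with neighbouring genes placed side by side. Lum and Ogn reach 0.92, Fmod and Bgn 0.91, and Fmod and Ogn 0.13.

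Marker transcripts of cell types moved with several of these genes. In bulk tumors, fewer cells of a type and less RNA per cell cannot be told apart. Nor do bulk values show which cells, host or tumor, made a transcript. For 15 fibroblast markers, which do not include the 9 genes, the mean log2(TPM + 1) was 4.40 and 4.99 with both drugs, 3.80 and 4.20 with rapamycin, 4.47 and 4.01 with loratadine, and 3.01 and 3.29 with vehicle. The vehicle tumors were lowest, as they were for decorin, lumican, Prelp, biglycan and fibromodulin. Of the 15 markers, 2 rose with rapamycin, beside 12.0% of all tested genes. These were Pdgfrb (1.44, SE 0.38, adjusted p = 0.034) and Thy1 (1.11, SE 0.31, adjusted p = 0.041). With loratadine 0 markers were called, 0 were called lower with either drug, and none was at 0 TPM in all tumors. The summed TPM of the list did not order the tumors in this way, at 428 to 920 TPM with rapamycin and 403 to 1101 TPM without it, because Fbln2 alone was at 914 TPM in the vehicle tumor B1L. Over the 8 tumors r with the marker mean was 0.92 for decorin, 0.92 for lumican, 0.86 for Prelp, 0.77 for osteoglycin, 0.73 for biglycan, 0.50 for fibromodulin and 0.29 for osteomodulin. With the marker mean as a further term, the differences with rapamycin were -0.64 (SE 0.76) for decorin and -0.05 (SE 0.40) for lumican. Those with loratadine were -2.78 (SE 0.94) for decorin and 1.04 (SE 0.50) for lumican. The 4 members called for rapamycin kept about their size in that model but had larger errors, with 2.63 (SE 0.52) for fibromodulin, 2.35 (SE 0.70) for Prelp, 1.02 (SE 0.34) for biglycan and 0.93 (SE 0.42) for podocan. There 0 members were called for rapamycin, as were 0 of 15095 genes, of which 2464 had an unadjusted p under 0.05. The marker mean was itself lowest with vehicle, so this term cannot part fibroblast content from the drugs, for any of these genes. The part of fibroblast content in the results was not tested beyond this.

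**Figure D5:**
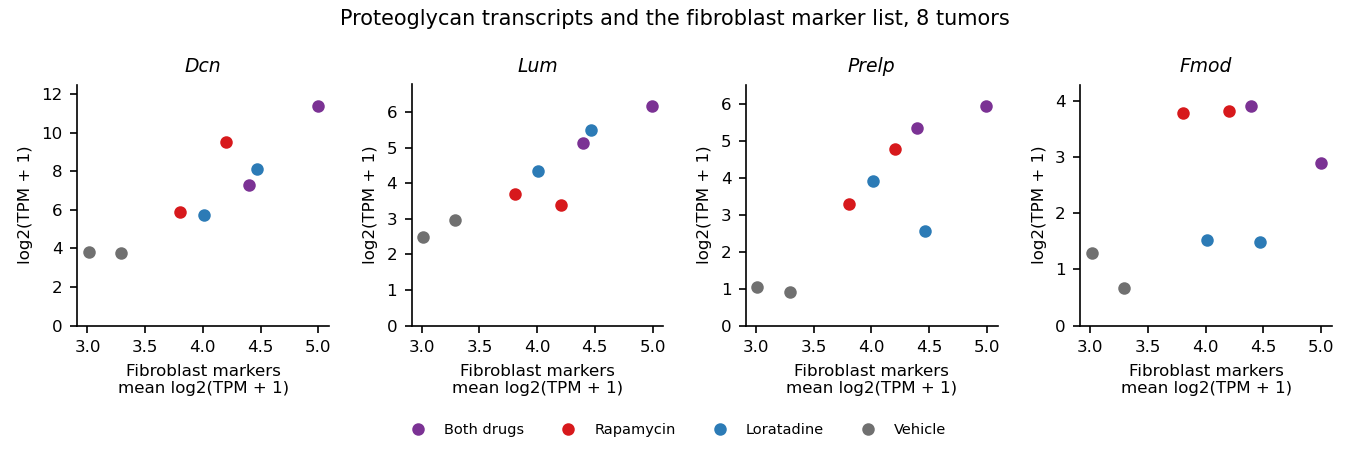
log2(TPM + 1) of Dcn, Lum, Prelp and Fmod against the mean log2(TPM + 1) of 15 fibroblast markers, with each point 1 tumor coloured by treatment. Dcn and Lum climb with the markers (r = 0.92 each). For Fmod (r = 0.50) the 4 tumors with rapamycin lie above the rest, among which the vehicle tumors have the lowest marker means.

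Other lists moved in 1 tumor, in several or along with a drug. All 12 muscle fibre markers were highest in C1R, with a summed level of 227 TPM there and 9.71 to 29.0 TPM in the other tumors, and C1R was also the tumor with the highest decorin, lumican, osteoglycin, Prelp and podocan. The 12 adipocyte markers summed to 645 TPM in A3L, 253 TPM in D1L, 903 TPM in B3R and 574 TPM in F3R, and to 34.9 to 67.4 TPM in the other 4 tumors. Of these markers, 11 were higher with loratadine, with a median difference of 1.80 over the list, and 0 were called. Their mean had r of 0.50 with lumican and 0.02 with decorin. With it as a term, the loratadine differences were 2.28 for lumican, 3.70 for decorin, 0.17 for biglycan and -0.43 for fibromodulin. Of 6 endothelial markers, Cdh5 (adjusted p = 0.018), Emcn (adjusted p = 0.030) and Cldn5 (adjusted p = 0.019) fell with rapamycin. Over all genes, 1189 of 15095 were called lower. The r of the endothelial mean with the members ran from -0.87 for fibromodulin to 0.06 for osteoglycin. That mean was 2.02 to 2.67 with rapamycin and 2.89 to 3.35 without it. Like fibromodulin it thus separated the tumors by rapamycin, so this r is a description only. Without C1R, 3 members were called for rapamycin and podocan was not among them. With the muscle fibre mean as a term, the decorin difference with rapamycin was 2.38, beside 3.15 without that term. Beyond these terms for fat and muscle, the part of muscle, fat and vessel content in the results was not tested.

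The other genes of the family and its relatives were mostly scarce. Of 9 such genes 4 were tested, and 3 rose with rapamycin, beside 12.0% of all tested genes. Chadl, a leucine-rich repeat gene of cartilage, was at 4.96 and 2.87 TPM with both drugs, 7.41 and 3.91 TPM with rapamycin, 1.09 and 1.20 TPM with loratadine, and 0.42 and 1.31 TPM with vehicle, a difference with rapamycin of 1.50 (SE 0.29, adjusted p = 0.015). Podnl1, the closest relative of podocan, rose by 0.94 (SE 0.24, adjusted p = 0.032). Ecm2, which precedes asporin on chromosome 13, rose by 0.78 (SE 0.17, adjusted p = 0.021). Without rapamycin Podnl1 reached at most 0.95 TPM and Ecm2 at most 0.99 TPM. Both thus passed the filter only through tumors with rapamycin, so nothing is read from the count of 3. Tsukushi (Tsku), a secreted modulator of BMP and Wnt signals, ran the other way, with at most 19.0 TPM with rapamycin and 15.4 to 33.9 TPM without it, and was not called (-0.64, SE 0.25, adjusted p = 0.10). Keratocan (Kera), which follows lumican on chromosome 10, and epiphycan (Epyc), next after it, stayed under 1 TPM in all 8 tumors.

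The collagens that these proteins bind were called in one direction. Of 13 tested fibrillar and fibril-associated collagen genes, 6 rose with rapamycin, beside 12.0% of all tested genes, and 0 fell. The median was 0.77. With loratadine 0 were called, and the median was 0.77 as well. The 6 were Col1a1 (1.02, SE 0.24, adjusted p = 0.025), Col1a2 (0.87, SE 0.21, adjusted p = 0.026), Col3a1 (0.77, SE 0.19, adjusted p = 0.029), Col12a1, Col5a1 and Col6a2. Col3a1, the fibrillar collagen of skin and vessels, was at 541 and 716 TPM with both drugs, 175 and 269 TPM with rapamycin, 423 and 302 TPM with loratadine, and 145 and 117 TPM with vehicle. Like lumican it was higher in all 4 tumors with loratadine than in all 4 without it, by 1.48 (SE 0.19), but it did not pass the test (adjusted p = 0.40).

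Few genes that build the sugar chains were called. Of 21 tested genes of chondroitin and dermatan sulfate synthesis, 1 rose with rapamycin, beside 12.0% of all tested genes, and the median was 0.25. It was the uronyl sulfotransferase Ust (1.39, SE 0.23, adjusted p = 0.012). Ust was at 2.98 to 10.1 TPM with rapamycin and 0.39 to 3.48 TPM without it. The most abundant gene of this list, the linkage-region enzyme B3gat3, was not called (0.76, SE 0.25, adjusted p = 0.062). Of those not called, only Csgalnact1 differed as much as biglycan did (1.08, SE 0.39, adjusted p = 0.083). It starts chondroitin chains and was picked after its values were seen. Of 5 tested genes of keratan sulfate synthesis 0 rose and 1 fell, the sulfotransferase Chst1 (-0.70, SE 0.19, adjusted p = 0.037). Over all genes, 1189 of 15095 were called lower with rapamycin. With loratadine 0 genes of either list were called, and Ust differed there by 1.24 (SE 0.23, adjusted p = 0.50).

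Calls among receptors and partners ran both ways. Of 12 tested receptors that members of the family are known to bind, 3 rose with rapamycin and 1 fell. Over all 15095 tested genes, 12.0% were called higher and 1189 genes lower. Cd14, a co-receptor of the Toll-like receptors, was at 118 to 193 TPM with rapamycin and 49.6 to 95.9 TPM without it (1.25, SE 0.18, adjusted p = 0.0091). Igf1r (0.78, SE 0.20, adjusted p = 0.034) and Egfr (1.04, SE 0.31, adjusted p = 0.049) also rose, and the hyaluronan receptor Cd44 fell (-0.67, SE 0.19, adjusted p = 0.042). Of 6 TGF-beta ligands and receptors, 3 rose with rapamycin, beside 12.0% of all tested genes. These were Tgfb2 (1.04, SE 0.30, adjusted p = 0.047), Tgfb3 (0.76, SE 0.17, adjusted p = 0.024) and Tgfbr3 (1.08, SE 0.23, adjusted p = 0.020). Tgfb1, the most abundant ligand of the list, was not called (-0.11, SE 0.19, adjusted p = 0.69). Of 10 tested proteases and cofactors that act on matrix proteins of this kind, 1 rose, beside 12.0% of all tested genes. It was Mmp2, a gelatinase (2.0, SE 0.42, adjusted p = 0.019). Its level was 84.0 to 379 TPM with rapamycin and 12.9 to 126 TPM without it. Mmp12 and Mmp13, picked after their values were seen, ran the other way and were not called, with Mmp12 at 18.7 to 46.0 TPM with rapamycin and 27.0 to 251 TPM without it (-2.09, SE 0.65, adjusted p = 0.055) and Mmp13 at -1.67 (SE 0.60, adjusted p = 0.083). With loratadine 0 genes of these 3 lists were called, and Mmp2 differed there by 1.75 (SE 0.42, adjusted p = 0.56).

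Genes whose pattern was most like that of the family were sought by Pearson's r over the 8 tumors among 10179 genes with a mean of at least 5 TPM. For the mean of the standardized values of the 9 genes these were Mfap4, a protein of elastic fibres, Islr, a leucine-rich repeat protein of stromal cells, and the Golgi transporter Slc35a1, each with r = 0.99. Mfap4 was at 16.7 and 17.5 TPM with both drugs, 13.6 and 10.3 TPM with rapamycin, 10.2 and 6.71 TPM with loratadine, and 5.85 and 3.24 TPM with vehicle. For lumican the most alike were Gng11 (r = 0.99), Ilk (r = 0.97) and Maz (r = 0.96), and for fibromodulin Tmem20, Nelf and Mcf2l (each r = 0.99). The 3 lists have no gene in common. The most alike gene of each of the other 7 members had r between 0.97 and 0.99. These are the highest of 10179 values over 8 tumors that share treatments. Every member had a gene with such an r, so it is a description only.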

How the data were processed

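RNA from 8 tumors was sequenced. By the methods of the study, expression was estimated with Kallisto on mouse mm9 and summed to genes, while bedtools, SAMtools 0.1.18 and STAR 2.4.0f1 on mm9 stand in the submitters' processing notes, and the sources used here do not settle between them. The values the authors deposited are TPM by gene and tumor. They come in 2 tables, equal to within 5e-07 TPM, of which the first was analysed. TPM keeps no depth, so the only measure of error is the spread between tumors that the model leaves. Each tumor code was read as another animal.

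Groups follow the treatment in the labels, and no tumor was left out. The test was two-sided, by limma 3.58.1 (R 4.3.3) with empirical Bayes moderation and an intensity trend, on log2(TPM + 1). It covered the 15095 genes that reached 1 TPM in 2 or more tumors, with Benjamini-Hochberg adjustment over all of them and a threshold of 0.05. Drug effects are terms of an additive model with 5 residual degrees of freedom, and pairs and the interaction come from 4 group means with 4. The code was tested on simulated data. DESeq2, used in the study, takes counts and was not used here. The members and gene lists were chosen with earlier results of these data known. Named were all members, up to 4 genes of a list by mean TPM, list genes that were called, and the 3 genes most like Lum, Fmod and the family mean. The cell type lists held fibroblast, pericyte, adipocyte, muscle fibre, cartilage and bone, kidney tubule, mammary, macrophage and endothelial markers. Alternatives were pseudocounts of 0.1 and 0.5, dropping the filter or asking for a mean of 5 TPM, other scalings and no trend. Others were marker means as terms, the second table, only the groups compared, the code letter as a block and each tumor left out. A comparison of protein sequences was not run. Positions are from the NCBIM37 annotation and plots were made in Python 3.11.15 (matplotlib 3.10.9).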

Additional observations from a re-analysis of the deposited data

How the results depend on the processing

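The count of members called for rapamycin (4) was 3 or 4 in all alternatives except one: it was 0 with the fibroblast marker mean as a term, where 0 of all genes were called and the differences of the 4 genes were 0.93 to 2.63, with a median over the members of 0.75 beside 0.88. Leaving out 1 tumor gave 3 to 4. For rapamycin against vehicle (3) it was 1 with only the 2 groups, 2 to 3 in the other settings, and 0 to 3 with 1 tumor left out. For both drugs against vehicle (4) it was 2 without the filter and 0 to 5 with 1 tumor left out. For loratadine it was 0 in all alternatives run. This held also against vehicle with code letters B and F as a replicate block (0, and 0 of 13805 genes). Of single genes, decorin was called for rapamycin only without A3L. Median-of-ratios scaling moved the rapamycin median of all genes from 0.12 to 0.02 and the calls from 1813 higher and 1189 lower to 1304 and 1624, with 4 members still called. Quantile normalization gave 1262 and 1385. Under these scalings the 9 rapamycin differences stayed positive. The term for muscle fibre markers was chosen after seeing the data and gave 3. Depth is unknown, and there were 2 tumors per group.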

Other observations

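Of the marker lists the report does not describe, macrophage markers were abundant in all tumors, with summed levels of 945 to 2393 TPM with rapamycin and 682 to 1601 TPM without it, and 0 of 7 were called for either drug. Of 8 kidney tubule markers, Pax8 rose with rapamycin (0.60, SE 0.16, adjusted p = 0.034) and Krt8 fell (-1.08, SE 0.22, adjusted p = 0.017). Over all 15095 tested genes, 12.0% were called higher and 1189 genes lower. Of 6 pericyte markers 0 were called, with summed levels of 45.6 to 70.4 TPM with rapamycin and 40.1 to 56.5 TPM without it. Of 12 cartilage, bone and tendon markers, 6 stayed below 1 TPM in all tumors and 0 of the 5 tested were called, and Scx, a tendon transcription factor, had the highest mean of the list at 63.6 TPM. Of 8 mammary epithelium markers 0 of 4 tested were called. The casein gene Csn3 was at 174 TPM in the vehicle tumor B1L and at 0.69 to 11.7 TPM in the other 7, and Krt14 at 39.6 TPM in the vehicle tumor F5L and 0.10 to 4.74 TPM in the other 7.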
